A study of Mus musculus with 6 samples.

Results

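The genes described here encode the proteins of the cytosolic ribosome. They were taken by name from the deposited expression table: Rpsa, Rplp0, Rplp1, Rplp2, and every name made of Rpl or Rps followed by a digit, without pseudogene names holding -ps and without the Rps6k kinases. The rule took 93 of 55450 genes, 55 of the large and 38 of the small subunit. Of these, 77 were core ribosomal protein genes (46 large, 31 small), 8 were expressed or tissue-restricted paralogs and 7 were pseudogene-type rows that carry a gene-like name. The remaining 1, Rps19bp1, encodes a protein that binds Rps19 and is no part of the ribosome. A gene was tested where its value was at least 1 on the log2(TPM + 1) scale in at least 3 of the 6 libraries, which 90 members passed (52 large, 38 small). TPM is a transcript abundance per unit of transcript length, scaled to a fixed total per library. Rpl10l was listed at 0 in all 6 libraries, Rpl3l was listed at 0 in all but deficient C1 (0.08), and Rpl32l lay between 0.00 and 0.96, so these 3 were not tested.

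The small subunit of the ribosome reads the messenger RNA, and the large subunit joins amino acids and holds the tunnel through which the new chain leaves. Cells make the ribosomal proteins in near-equal numbers, and their messenger RNAs start with a run of pyrimidines, the terminal oligopyrimidine (TOP) motif, through which the kinase complex mTORC1 and the RNA-binding protein Larp1 control their translation. In T cells ribosome production rises on activation, and mTORC1 activity is part of the control of regulatory T cell function.

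The libraries were RNA-seq of regulatory T (Treg) cells sorted from MC38 tumours, a mouse colon adenocarcinoma line, in C57BL/6 mice. Treg cells were Tim-3 sufficient in 3 libraries and Tim-3 deficient in 3, and the comparison addresses what loss of Tim-3, an inhibitory receptor encoded by Havcr2, does in tumour Treg cells. The labels do not give the allele or Cre driver, the animals' age or sex, or how many mice stand behind a group. The p-values therefore describe only how far these libraries spread, and that spread may be technical. Each group had 1 library whose column name carries a calendar date of unstated meaning. The libraries are called sufficient A1, B1 and dated and deficient C1, D and dated after those column names.

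Havcr2 was lower in every deficient library (3.54, 4.27 and 2.55) than in every sufficient one (5.70, 5.64 and 4.49), without passing over all genes (adjusted p = 0.211 in limma). A library held 11470 to 12681 genes at 1 TPM or more, and its depth is unknown because TPM keeps no read counts. Foxp3, the defining Treg gene, lay between 4.82 and 5.56 in all 6 libraries. The 8 Treg markers summed to 6912 to 9038 TPM in sufficient and 5596 to 7342 TPM in deficient libraries. Of the 8, 6 had a lower and 2 a higher mean in deficient libraries, with a median log2 difference of -0.28. Foxp3 was among the higher (0.31), and Cd3e alone was lower without overlap between the groups (12.5%, against 6.73% of all genes). Transcripts on lists of markers of other cells were present in both groups and the ranges of their sums overlapped, except erythroid genes. Macrophage and monocyte markers (12 genes) summed to 147 to 1178 against 225 to 1545 TPM, and dendritic markers (8 genes) to 87.7 to 416 against 237 to 872 TPM. These lists mix unlike genes. Ccr2 lay between 6.91 and 8.15 and Ccr7 between 5.22 and 6.56 on the log2 scale in all 6 libraries. C1qa ran from 0 in deficient D to 4.92 in sufficient B1 and 6.23 in deficient C1. A sum alone therefore does not show that such cells were in a library. The sums were 338 to 614 against 582 to 793 TPM for B cell markers (6 genes, Ms4a1 at 0) and 26.1 to 63.4 against 27.5 to 88.6 TPM for CD8 and NK markers (6 genes). Epithelial markers (5 genes, Krt8 and Krt19 at 0) summed to 9.80 to 17.2 against 12.8 to 24.6 TPM. Erythroid genes summed to 58.7 TPM in the sufficient dated library, to 2.62 TPM or less in the other sufficient libraries and to 0 in the deficient ones. Their part in the results below was not tested. In bulk RNA, fewer cells of a type and less RNA per cell cannot be told apart.

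The start regions of 6 members on which the results turn are shown first, because ribosomal protein messenger RNAs as a class are known for a pyrimidine-rich start. Each line gives 40 bases before and 30 bases after the RefSeq transcript start on GRCm38.p6, read along the gene, with the longest run of C and T in capitals (both runs where 2 were equally long). Rps15a (chr7:118116118-118116187, minus strand), Rpl12 (chr2:32961672-32961741, plus strand) and Rpsa (chr9:120127726-120127795, plus strand) had the most negative differences without overlap. Rpl13 (chr8:123102310-123102379, plus strand) and Rpl18 (chr7:45718031-45718100, plus strand) were the only members higher without overlap, and Rps27 (chr3:90213619-90213688, minus strand) was the most abundant small subunit transcript.
Rps15a: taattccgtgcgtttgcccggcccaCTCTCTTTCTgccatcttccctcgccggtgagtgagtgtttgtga
Rpl12: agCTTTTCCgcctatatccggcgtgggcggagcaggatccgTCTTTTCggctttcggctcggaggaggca
Rpsa: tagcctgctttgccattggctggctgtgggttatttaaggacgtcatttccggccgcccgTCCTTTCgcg
Rpl13: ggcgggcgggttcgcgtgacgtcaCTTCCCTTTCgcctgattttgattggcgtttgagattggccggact
Rpl18: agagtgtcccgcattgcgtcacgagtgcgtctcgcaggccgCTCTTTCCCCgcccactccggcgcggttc
Rps27: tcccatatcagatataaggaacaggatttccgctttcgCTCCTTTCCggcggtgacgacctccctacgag
The run was 10 bases long in Rps15a, Rpl13 and Rpl18, 9 in Rps27 and 7 in Rpl12 and Rpsa. It lay across the annotated start in Rps27, before it in Rps15a and Rpl13, and after it in Rpsa and Rpl18. Rpl12 had 2 such runs, 1 before and 1 after the start. The Rpl18 start used by RefSeq lay 2614 bases from the start of the GENCODE gene, so it marks another of its transcripts. In Rps15a, Rpl12 and Rpsa the RefSeq start lay 41, 153 and 77 bases from the GENCODE one. The place of a run is therefore given against the RefSeq start only.

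RefSeq promoter windows (250 bases before to 50 after the start, GRCm38.p6) were held for 68 members, 57 of them core genes. The pyrimidine motif CTCTTT on the gene's strand was in 22 of the 57 core windows (38.6%) against 12.02% of 32771 other promoters of the same length. The motif CTTTCC on the gene's strand was in 21 (36.8%) against 14.1%. Both were in 11 windows, in 7 of which the matches overlapped, and 1 or the other was in 32 (56.1%) against 23.0%. The ETS-type motif CCGGAAG, searched on both strands, was in 23 core windows (40.4%) against 8.80%, and the YY1-type motif AAGATGG, on both strands, in 8 (14.04%) against 6.32%. The E-box CACGTG, which reads the same on both strands, was in 5 (8.77%) against 7.14%, and the TATA motif TATAAA on the gene's strand was also in 5 (8.77%) against 8.32%. Of the 57, 22 were lower without overlap in the comparison below and 35 were not: CTCTTT was in 40.9% of the former and 37.1% of the latter, CCGGAAG in 40.9% and 40%, and CTTTCC in 22.7% and 45.7%. These are counts of letters, not sites.

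Ribosomal protein transcripts were among the most abundant in these cells. The core members had mean levels of 6.90 or more on the log2(TPM + 1) scale, with a median of 10.23, where the median over all 12155 tested genes was 3.54. In the large subunit Rpl37a and Rpl41, which encodes the smallest ribosomal protein, were among the highest. In the small subunit Rps27 led at 12.77, followed by Rps19, the gene most often mutated in Diamond-Blackfan anaemia, and Rps14. Rpl41 had a difference of -0.21 (SE 0.14), and Rpl37a and Rps27 differed less. Rpl37a had 12.18, 12.23 and 12.25 in sufficient A1, B1 and dated and 12.21, 12.24 and 12.14 in deficient C1, D and dated. Rps27 had 12.63, 12.64 and 12.96 against 12.62, 12.88 and 12.88. In Rpl37a and Rps27 the groups overlapped, and the differences (-0.02 and 0.05) were smaller than their standard errors (0.12 and 0.15). Their signs turned in at least 1 other scaling of the libraries.

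Most ribosomal protein transcripts had a slightly lower mean in the Tim-3 deficient libraries, and no single gene passed the test over all genes. The differences quoted are deficient minus sufficient on the log2(TPM + 1) scale. Their median was -0.21 over the 52 large subunit genes and -0.18 over the 38 small subunit genes, against 0.09 over all 12155 tested genes. Of the 90 tested members, 70 had a negative difference (41 large, 29 small), against 39.9% of all genes. The quartiles of the core genes were -0.38 and -0.05, and the whole core ranged from -0.90 (Rps15a) to 0.35 (Rpl13). Among the undated libraries alone the medians were -0.10 (large) and -0.02 (small). There 36 of 52 large and 20 of 38 small subunit genes were negative, against 5028 of all 12155 tested genes.

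In limma none of the 90 members was called at an adjusted p under 0.05, against 0.206% of all tested genes (25 genes). Among all genes 0.074% were called lower and 0.132% higher. At an unadjusted p under 0.05, 19 members were lower (11 large, 8 small) and 0 were higher, against 4.69% lower and 6.98% higher among all genes. The 3 deficient libraries all lay below the 3 sufficient ones in 24 members, 12 in each subunit, where 6.73% of all genes did so. They all lay above in 2 members, where 10.9% of all genes did so. All 24 and both of these were core genes. Members moved together between libraries: 58 of the 77 core genes were highest in the sufficient dated library. The counts are therefore not counts of independent genes. The count of lower genes without overlap rose to 31 in the large and 21 in the small subunit without deficient C1. Without sufficient B1 it rose to 21 in the large subunit. With a library left out such a count can only stay or rise, also among all genes. These counts therefore cannot be read beside the 6.73%.

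**Figure D1:**
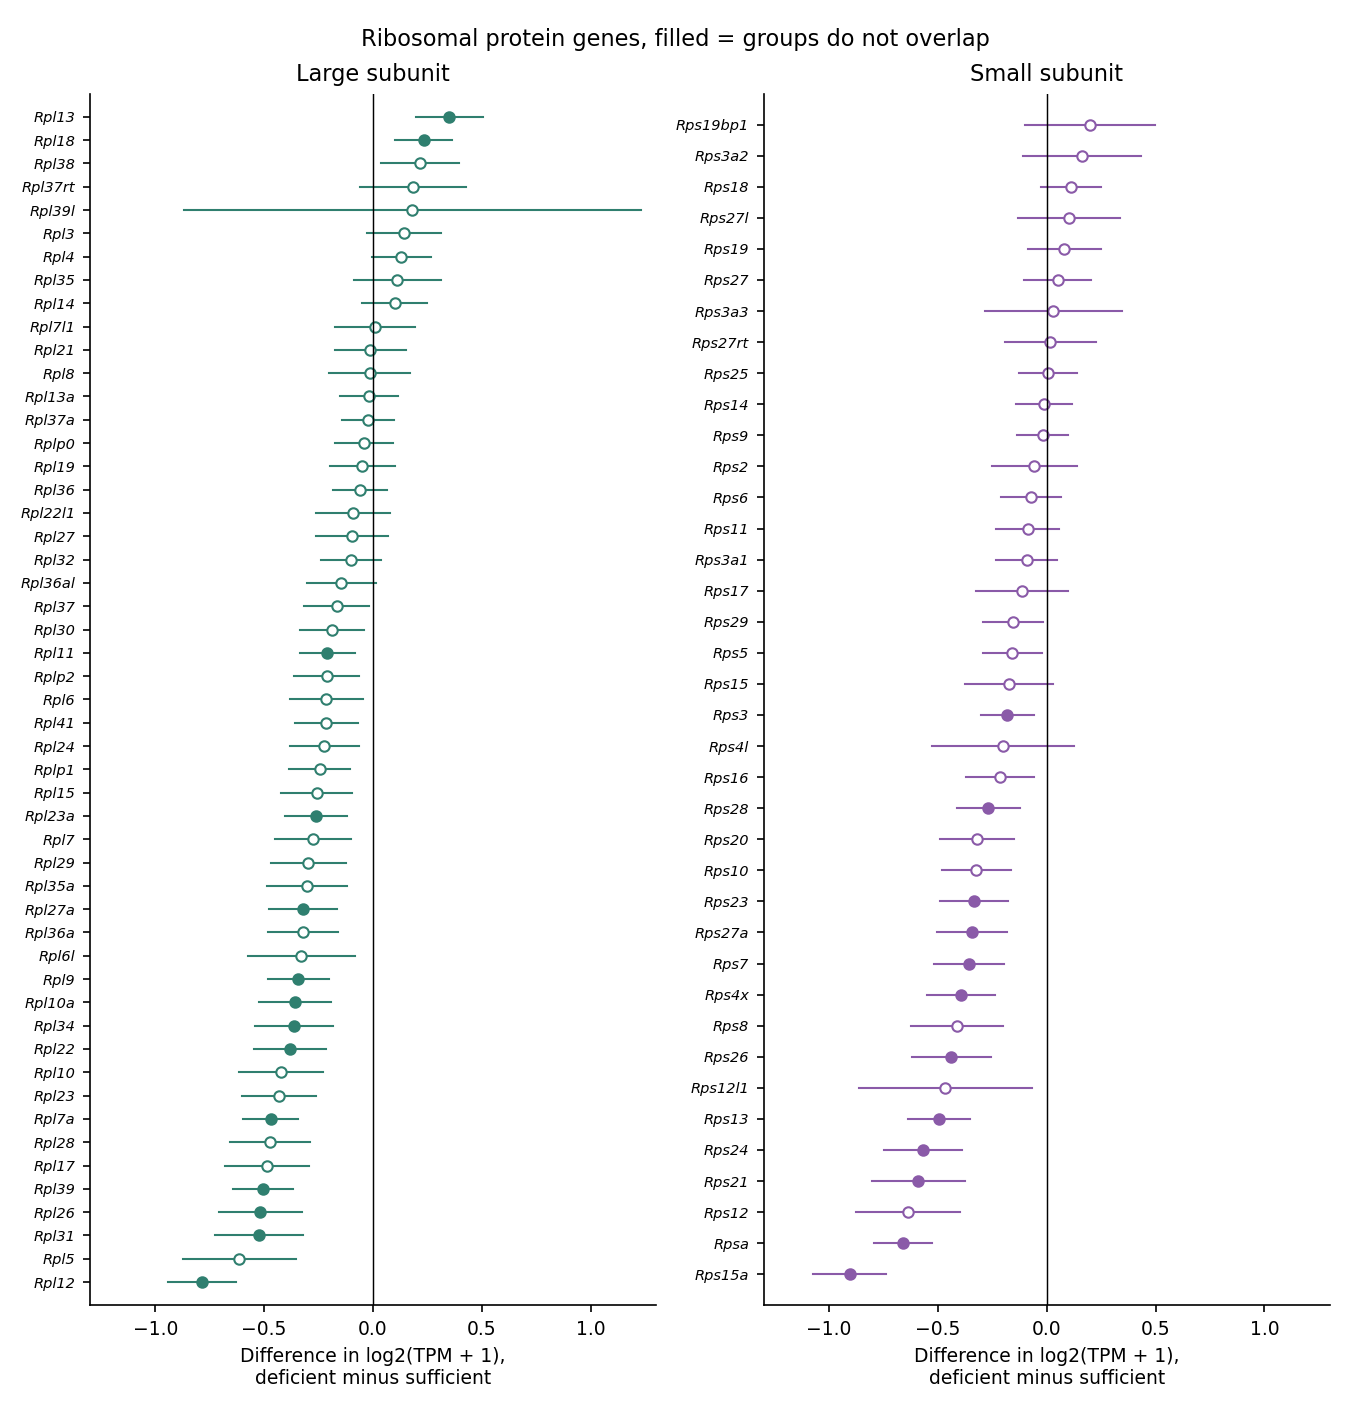
Difference in log2(TPM + 1), deficient minus sufficient, for tested large subunit genes (left, 1 gene not drawn) and the 38 tested small subunit genes (right). Bars are the standard error from limma (3 against 3 libraries) and filled points are genes whose groups do not overlap. Most points lie left of 0, from Rps15a at -0.90 to Rpl13 at 0.35, and the widest bar is that of Rpl39l.

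Among small subunit genes, Rps15a and Rpsa stood lowest. Rps15a had 10.79, 10.63 and 11.21 in sufficient A1, B1 and dated and 9.98, 9.92 and 10.01 in deficient C1, D and dated. The deficient libraries lay close together and all below the sufficient ones. The mean was 9.97 ± 0.05 against 10.88 ± 0.30 (SD, n = 3 each), a difference of -0.90 (SE 0.17) or 1.87-fold lower, with an adjusted p of 0.0961 in limma. Rpsa, known also as a laminin receptor precursor, had 11.09, 10.95 and 11.11 against 10.52, 10.42 and 10.22. Both groups were tight and well apart, with a difference of -0.66 (SE 0.13), 1.58-fold lower, and an adjusted p of 0.117 in limma.

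Next in size were Rps21, Rps24 and Rps13, all core proteins of the small subunit. Rps21 had 9.90, 9.74 and 10.51 against 9.67, 9.34 and 9.37, so the gap between the groups was narrow, at a difference of -0.59 (SE 0.21). Rps24, another Diamond-Blackfan gene, had 10.48, 10.29 and 10.91 against 10.14, 9.93 and 9.90, a difference of -0.57 (SE 0.18). Rps13 had 11.11, 10.99 and 11.41 against 10.67, 10.66 and 10.70, with the deficient libraries nearly identical and a difference of -0.49 (SE 0.14). The adjusted p in limma of these 3 lay between 0.240 and 0.339. Rps26, Rps4x, Rps7, Rps27a, Rps23, Rps28 and Rps3 were the other small subunit genes lower without overlap, by -0.44 to -0.18. Rps12, named after its values were seen, had a difference of -0.64 but overlapped: deficient C1 (10.05) lay above sufficient B1 (9.97). Rps6, the substrate of the kinases under mTORC1, had a difference of -0.07 (SE 0.14).

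In the large subunit Rpl12 stood lowest. It encodes a protein at the base of the stalk where the translation factors bind. Rpl12 had 10.13, 9.74 and 10.11 in sufficient A1, B1 and dated and 9.37, 9.17 and 9.08 in deficient C1, D and dated. No libraries overlapped, and the difference was -0.79 (SE 0.16), 1.72-fold lower, with an adjusted p of 0.113 in limma. The stalk proteins themselves, Rplp0, Rplp1 and Rplp2, had differences of -0.04, -0.25 and -0.21, and their groups overlapped.

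Rpl39, Rpl7a, Rpl31 and Rpl26 followed in the large subunit. Rpl39, a small protein that lines the exit tunnel, had 9.99, 9.91 and 10.26 against 9.50, 9.52 and 9.63, a difference of -0.50 (SE 0.14). Rpl7a had 9.27, 9.10 and 9.26 against 8.83, 8.71 and 8.69, a difference of -0.47 (SE 0.13). In Rpl31 (9.49, 9.47 and 9.86 against 9.45, 9.02 and 8.77) the gap between the groups was narrow and deficient C1 lay beside sufficient B1, at a difference of -0.52 (SE 0.20). Rpl26, which also binds the messenger RNA of p53, had 10.60, 10.53 and 11.16 against 10.24, 10.12 and 10.39, a difference of -0.52 (SE 0.19). The adjusted p in limma of these 4 lay between 0.214 and 0.368. Rpl22, Rpl34, Rpl10a, Rpl9, Rpl27a, Rpl23a and Rpl11 completed the lower genes without overlap, at -0.38 to -0.21. Rpl5, which with Rpl11 binds Mdm2 when ribosome assembly is disturbed and is named after its values were seen, had a difference of -0.61 with overlap.

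Rpl13 and Rpl18 went the other way. Rpl13 had 10.91, 11.01 and 11.05 in sufficient A1, B1 and dated and 11.61, 11.28 and 11.14 in deficient C1, D and dated. All deficient libraries were higher, with deficient C1 the highest, at a difference of 0.35 (SE 0.15, adjusted p = 0.433 in limma). Rpl18 had 10.19, 10.21 and 10.14 against 10.48, 10.53 and 10.24. Here the deficient dated library lay close to the sufficient ones, and the difference was 0.23 (SE 0.13, adjusted p = 0.527 in limma). Neither passed in any alternative run.

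**Figure D2:**
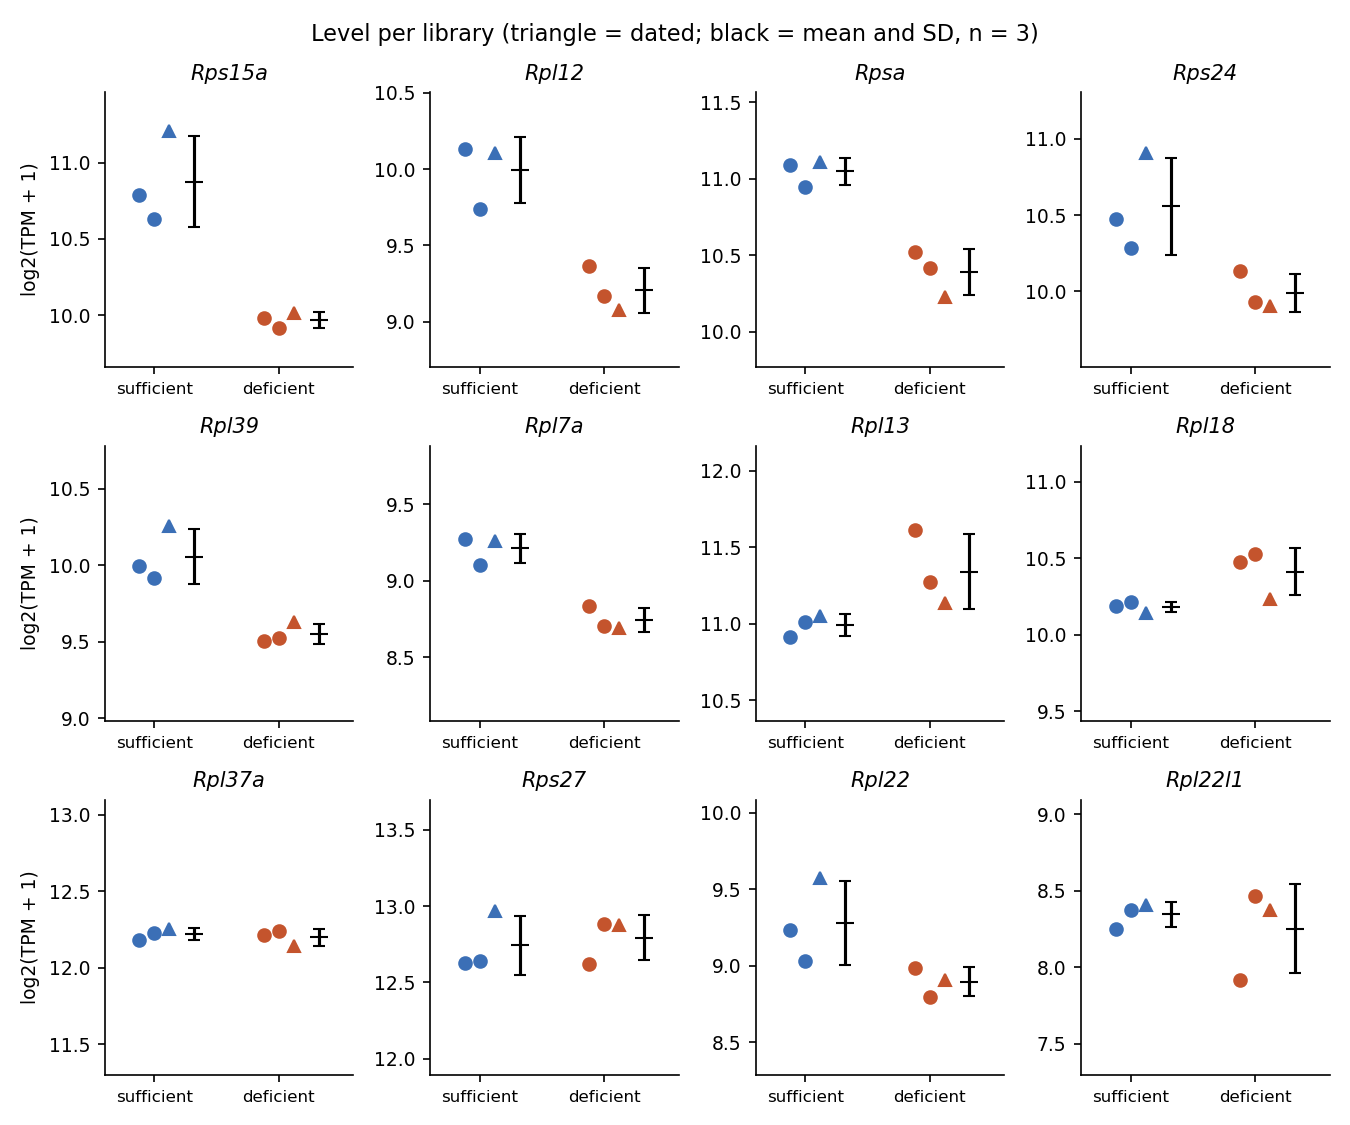
Level in log2(TPM + 1) of 12 members in each library (blue sufficient, orange deficient; circles undated, triangles dated libraries; black bars mean and SD, n = 3). The groups separate in Rps15a, Rpl12, Rpsa, Rps24, Rpl39, Rpl7a and Rpl22 with sufficient higher, separate the other way in Rpl13 and Rpl18, and overlap in Rpl37a, Rps27 and Rpl22l1. Each panel has its own vertical axis, all of equal span.

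Nearly all members had the larger deficit in the dated pair of libraries. Over the large subunit its median was -0.47 in the dated pair (1 against 1) and -0.10 among the undated libraries (2 against 2). Over the small subunit it was -0.55 and -0.02. All tested genes had medians of 0.08 and 0.09. In 86 of 90 members the dated pair had the more negative difference (48 of 52 large, 38 of 38 small), where 50.1% of all genes did. A negative difference occurred in 84 members in the dated pair, in 56 among undated libraries and in 54 (60.0%) in both, where 22.4% of all genes were negative in both. The deficient dated library alone lacked Y-linked transcripts (Ddx3y at 0.01, against 4.97 or more in every other library) and held Xist (2.01, against at most 0.03). In the dated pair sex and group therefore cannot be told apart.

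The sufficient dated library had the highest value of all 6 libraries in 58 of the 77 core genes. The deficient dated library had the lowest in 36 and deficient D in 22. Over all 12155 tested genes these counts were 1223, 2366 and 1230. The median core level was 10.25, 10.21 and 10.55 in sufficient A1, B1 and dated and 10.24, 9.95 and 10.003 in deficient C1, D and dated. So deficient C1 stood with the undated sufficient libraries. The median over all tested genes went another way (3.69, 3.55 and 3.32 against 3.80, 3.74 and 3.42), lowest in the sufficient dated library. Without that library the medians of the differences were -0.11 (large) and -0.07 (small).
The sufficient dated library also had the highest share of mitochondrially encoded transcripts (4.06% of TPM, against 2.41% to 3.41% in the other 5) and the erythroid transcripts given above. What part these, or the sex difference within the dated pair, had was not tested. Whether the difference depended on the date mark cannot be decided here, because each group had only 1 dated library. An absence of calls in the test that follows is therefore no evidence that the difference was the same with and without the mark. A test of whether the difference depended on the date mark called 0 of 90 members in limma (0.0165% of all genes, 2 genes), with adjusted p of 0.624 or more in every member.

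**Figure D3:**
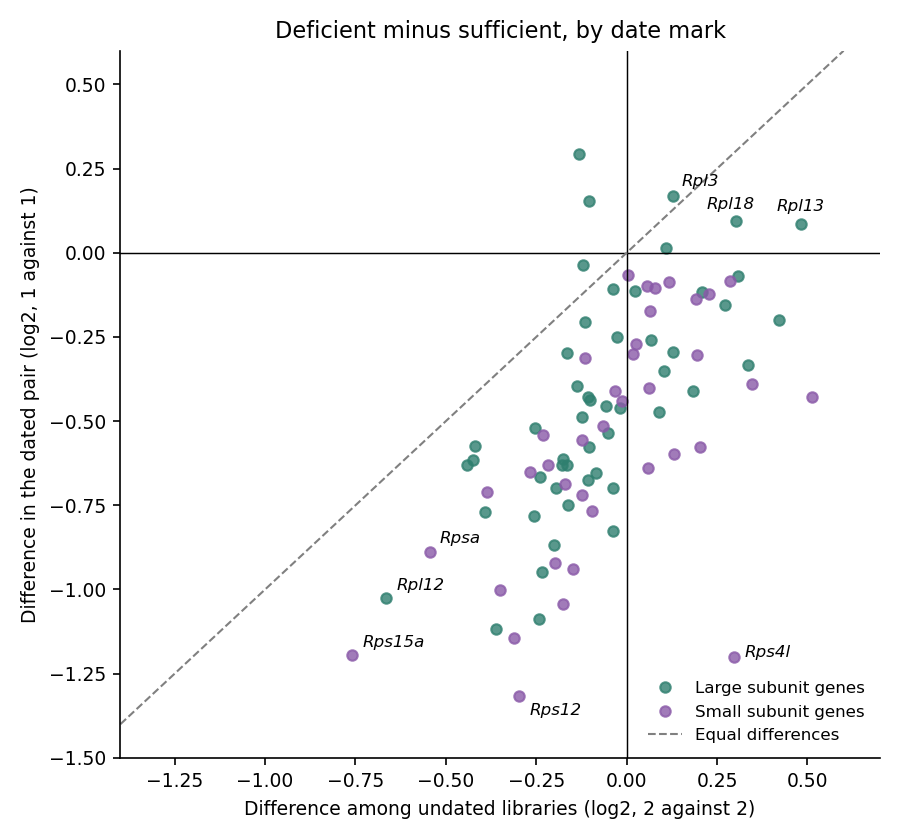
Each point is a tested member: its log2 difference, deficient minus sufficient, among the 4 undated libraries (horizontal, 2 against 2) and in the dated pair (vertical, 1 against 1). In 86 of 90 members the point lies below the dashed line of equal differences. Rps15a, Rpl12 and Rpsa are the only members negative on both axes by more than 0.5. Rpl39l, at -1.25 in the dated pair and 0.90 among undated libraries, lies outside the axes.

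With the date mark as a block, 3 members passed as lower in limma, where 0.856% of all genes passed as lower and 1.97% in either direction. These were Rps15a (adjusted p = 0.0228), Rpsa (0.0411) and Rpl12 (0.0445). Each was lower in both sets. For Rps15a the undated libraries differed by -0.76 and the dated pair by -1.19. The values were -0.55 and -0.89 for Rpsa, and -0.67 and -1.03 for Rpl12. In the 4 undated libraries alone Rps15a passed (adjusted p = 0.0396 in limma) and no other member did. The block does not take out sex, which differed within the dated pair.

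Summed over all members, ribosomal protein transcripts made up 12.2%, 12.1% and 14.8% of TPM in sufficient A1, B1 and dated and 12.4%, 11.5% and 11.3% in deficient C1, D and dated. The sufficient dated library alone stood high, and the groups overlapped through deficient C1. The mean was 13.0% ± 1.505 in sufficient and 11.7% ± 0.60 in deficient libraries (SD, n = 3 each), a difference of -1.29 percentage points, which is smaller than the sufficient SD. Among undated libraries the means were 12.1% and 11.9%, and without the sufficient dated library alone the difference was -0.42 points. The 2 subunits kept step: large subunit transcripts took 6.27% to 7.98% and small subunit transcripts 5.02% to 6.77%, and their ratio stayed between 1.18 (sufficient dated) and 1.28 (deficient C1).

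**Figure D4:**
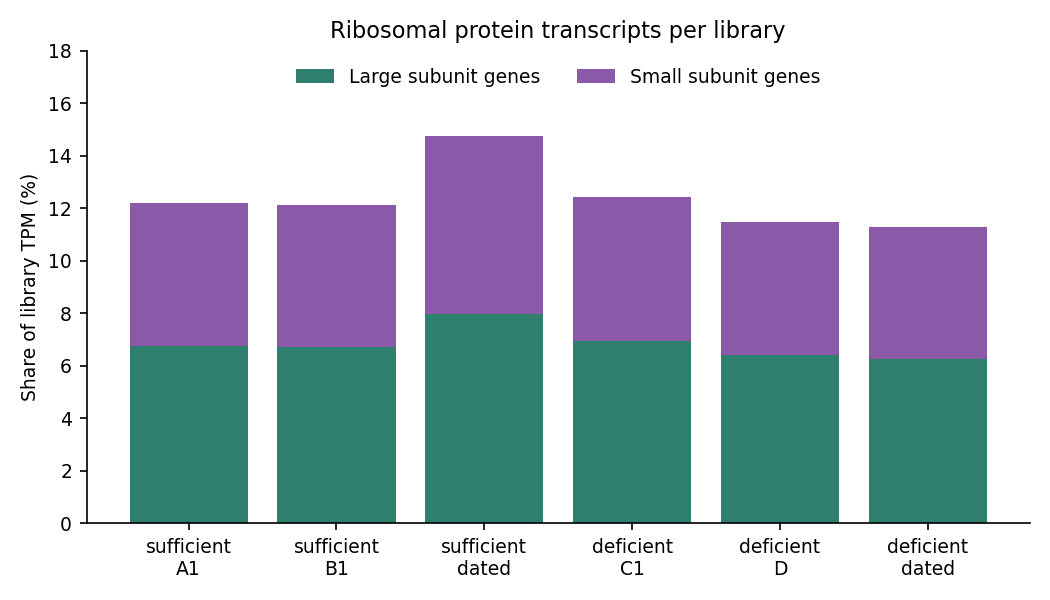
Share of each library's TPM taken by the members, large subunit (green) and small subunit (purple) stacked, in percent. The sufficient dated library reaches 14.8% and the other 5 lie between 11.3% and 12.4%.

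Each gene was also set against the median core level of its own library. That median itself differed by -0.28 between the groups. Subtracting it moved every gene's difference by the same amount, so the order of the genes could not change and is no second result. On this scale no member was called, against 0.255% of all genes (31 genes). The medians were then above 0, at 0.063 (large) and 0.099 (small), and that over all genes was 0.37. Rps15a (-0.63), Rpl12 (-0.51) and Rpsa (-0.38) departed most downward. Rpl13 (0.63), Rpl18 (0.51) and Rpl38 (0.49), a gene known for its part in translating Hox messenger RNAs, departed most upward. Across the 6 libraries the median SD of a core gene was 0.23 on the deposited scale and 0.15 against the core median. The latter scale takes out whatever the core genes shared in a library.

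Several ribosomal proteins have paralogs, and their balance differed little between the groups. Rpl22, which αβ T cells need in development, was lower without overlap: 9.23, 9.03 and 9.57 in sufficient A1, B1 and dated against 8.99, 8.79 and 8.91 in deficient C1, D and dated (-0.38, SE 0.17, adjusted p = 0.424 in limma). Its paralog Rpl22l1 overlapped (8.25, 8.38 and 8.41 against 7.92, 8.47 and 8.37), at a difference of -0.09 (SE 0.17). Rpl22l1 made up 34.4% ± 4.07 of the pair's TPM in sufficient and 39.2% ± 6.24 in deficient libraries (SD, n = 3 each), a gap smaller than the deficient SD.

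Rpl36al, a paralog of the X-linked Rpl36a, was the more abundant of its pair, at 58.7% ± 1.74 against 61.6% ± 3.03 of the pair's TPM. Rps27l, a p53-induced paralog of Rps27, made up 7.18% ± 0.79 against 7.77% ± 3.23 of its pair, with deficient C1 highest at 11.4%. Rpl7l1 took 3.25% ± 1.16 against 3.75% ± 0.15 of its pair with Rpl7. All of these overlapped. Rpl39l, known from testis, was low in the undated libraries (0.26 and 0.00 in sufficient A1 and B1, 0.93 and 1.13 in deficient C1 and D) and reached 4.05 and 2.80 in the sufficient and deficient dated libraries. Both dated libraries were thus the high ones, in opposite groups. Its share of the pair with Rpl39 was at most 1.26%. Rps27rt, a close relative of Rps27, had 8.16 to 8.81 and a difference of 0.02 (SE 0.21). Rpl3l and Rpl10l, known from muscle and testis, are given above at or near 0.

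The 7 pseudogene-type rows and Rps19bp1 account for the remaining members. Rpl37rt (7.55 to 8.36), Rps12l1 (5.84 to 7.52), Rps3a2, Rps4l, Rpl6l and Rps3a3 all overlapped between the groups, with differences between -0.47 and 0.18. The lowest tested members were Rps3a3 (0.93 to 1.76) and Rps4l (3.18 to 4.38) in the small and Rpl39l and Rpl6l (3.01 to 3.71) in the large subunit. Rps19bp1 had 4.80, 5.20 and 5.26 in sufficient A1, B1 and dated against 5.93, 5.09 and 4.83 in deficient C1, D and dated. The groups overlapped and the difference was 0.20 (SE 0.30), which turned to -0.13 without deficient C1.

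Near-identical pseudogene copies can share reads with ribosomal protein genes, and some had high values of their own. By sequence, 1093 annotated pseudogenes matched 79 members at 90% identity or more over 75% or more of the copy. The copies summed to over 10% of the member's own mean TPM in 20 members and to more than the member itself in 3. For Rpl5, copies came to 753% of the gene's TPM, almost all in Gm15500 (chr7:114705217-114706235, minus strand), which matches it over 1018 bases at 100% and had a mean of 929 TPM against 124 TPM. For Rpl27a, Gm7536 (chr3:24333068-24333511, plus strand) had 838 TPM against 243 TPM. For Rpl27, Gm11518 and Rpl27-ps3 had 683 and 608 TPM against 809 TPM. The low value of Rpl5 and Rpl27a beside other members is therefore uncertain, since the counting could have split their reads.

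Of the 15 most abundant copies, 12 had the sign of their member's difference. Shared reads can give a copy the sign of its member, so this is no separate evidence. Gm10275, a copy of Rpl12 at 100% identity, had a difference of -0.79, as Rpl12 had, and Gm15500 had -0.47 beside -0.61 in Rpl5. The 3 with the other sign were Gm10443 (0.07, beside -0.27 in Rps28), Rpl27-ps3 (0.06, beside -0.10 in Rpl27) and Rps16-ps2 (0.05, beside -0.21 in Rps16). Copies added to their member left the medians at -0.21 (large) and -0.18 (small) and called 0 members in limma. The count of small subunit genes lower without overlap was then 10.

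The 4 X-linked core genes, Rpl10, Rpl36a, Rpl39 and Rps4x, all had negative differences, between -0.50 and -0.32, and Rpl39 and Rps4x did not overlap. Of all core genes 84.4% were negative and 31.2% lower without overlap, against 39.9% and 6.73% of all tested genes. The deficient dated library lacked Y-linked transcripts (Ddx3y at 0.01, against 4.97 to 5.55 in the other 5) and held Xist (2.01, against at most 0.03). In the undated libraries all 4 were negative, with a median of -0.23, where 51 of the 77 core genes were negative with a median of -0.10. In the dated pair, where sex and group cannot be told apart, the median was -0.64, against -0.53 over all core genes. None was called.

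Other genes of the pathway were taken from lists, and none of their members was called in limma. Among ribosomal components that the name rule misses, Rack1, a scaffold protein on the small subunit (-0.44, SE 0.14), and Fau, a fusion of a ubiquitin-like protein to a small subunit protein (-0.30, SE 0.15), were lower without overlap, as were 6.73% of all genes. The levels of Rack1 were 9.64, 9.51 and 9.76 in sufficient A1, B1 and dated against 9.37, 9.06 and 9.16 in deficient C1, D and dated. The sufficient libraries were all higher.

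Of 29 elongation and initiation factors, 3 were lower and 5 higher without overlap (10.3% and 17.2%, against 6.73% and 10.9% of all genes), with a median of 0.21. Eef1b2, an exchange factor that recharges elongation factor 1 and whose messenger RNA is of the TOP class, had 9.18, 9.09 and 9.28 against 8.63, 8.59 and 8.63. Its groups were tight and apart at a difference of -0.57 (SE 0.12), with an adjusted p of 0.142 in limma and 0.0435 with the date mark as a block. Eif4a1, the helicase of cap-dependent initiation, lay higher in all deficient libraries (0.54, SE 0.15). Of 12 other TOP RNAs, 2 were lower and 2 higher without overlap (16.7% each, against the same 6.73% and 10.9%), with a median of 0.01: Tpt1 had a difference of -0.37 (SE 0.13) and Gas5, a noncoding host of small nucleolar RNAs, 0.30 (SE 0.12).

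The 39 tested genes of ribosome biogenesis (of 40 listed) had a median of 0.40. A negative difference occurred in 15.4% of them, against 39.9% of all genes. Without overlap 3 were higher (7.69%, against 10.9%) and 0 lower (against 6.73%). Deficient C1 had the highest value in 31 of the 39 and the sufficient dated library the lowest in 26. Over all 12155 tested genes these counts were 3433 and 3805. Rrp9, which belongs to the box C/D small nucleolar ribonucleoprotein that starts rRNA processing, had 4.23, 3.95 and 3.58 in sufficient A1, B1 and dated against 5.12, 4.58 and 4.46 in deficient C1, D and dated (0.80, SE 0.27, adjusted p = 0.295 in limma). Utp4 was also higher in each deficient library (0.77, SE 0.29). The undated libraries gave the list a median of 0.61 and the dated pair 0.11, so its larger differences lay in the undated libraries.

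The mTORC1 and Myc list (15 tested) had a median of -0.06, with 1 gene lower and 1 higher without overlap (6.67% each, against 6.73% and 10.9% of all genes). The lower one was Max, the partner of Myc (-0.57, SE 0.25), named after its values were seen. Mlst8, a subunit of the mTOR complexes, was the higher one (0.78, SE 0.33), and Myc, a driver of ribosome production, had 4.53, 5.18 and 4.17 against 6.04, 5.32 and 4.95 (0.81, SE 0.35, adjusted p = 0.422 in limma). For Myc the groups overlapped, since deficient dated lay below sufficient B1. Of 10 ribosome quality control genes, 1 was higher without overlap, against 10.9% of all genes (Hbs1l, which splits stalled ribosomes with Pelo, 0.32, SE 0.16), with a median of 0.14, and Eif2ak4, the kinase Gcn2, had -0.65 (SE 0.33) with overlap. The 78 mitochondrial ribosomal protein genes had a median of 0.06, with 2 lower and 5 higher without overlap (2.56% and 6.41%, both below the 6.73% and 10.9% of all genes). Mrps22 was among the higher ones (0.80, SE 0.27) and Mrpl38 had 1.23 (SE 0.44) with overlap. Their median lay close to that of all genes, and below 0 lay 28 of the 78.

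**Figure D5:**
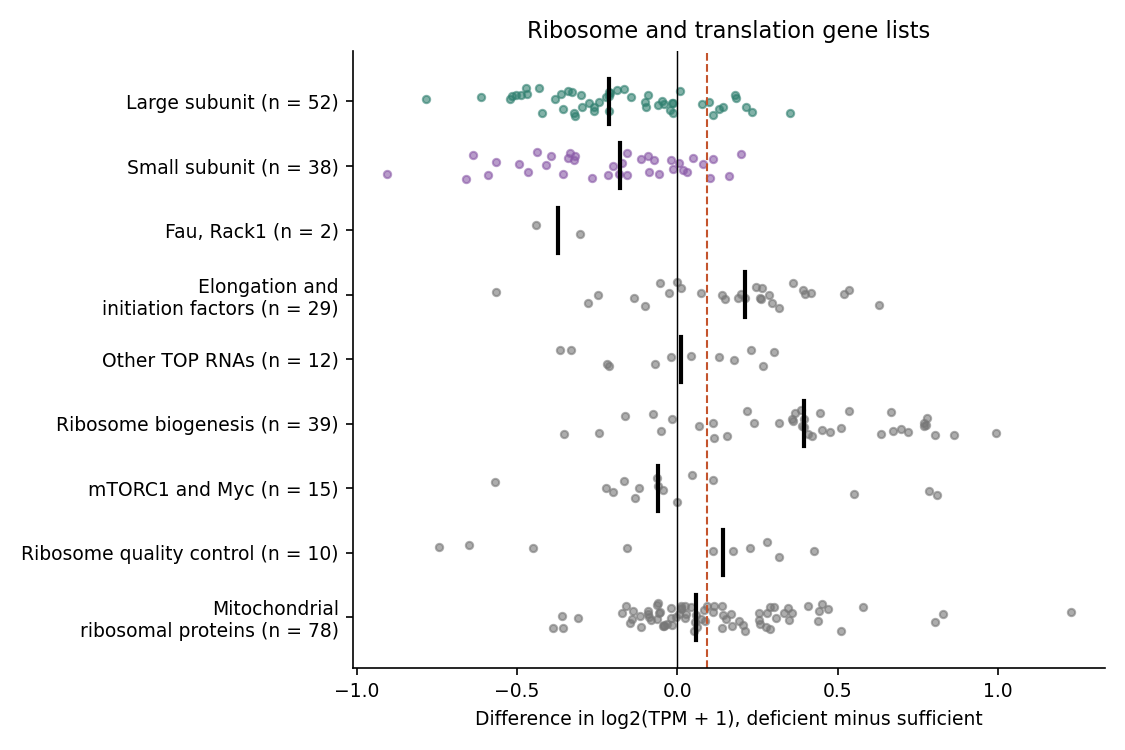
Difference in log2(TPM + 1), deficient minus sufficient, for each tested gene (points) of both subunits and of 7 other lists, with the median of each list (black bar) and of all tested genes (dashed line, 0.09). The subunits, the pair Fau and Rack1, and the mTORC1 and Myc list have medians below 0, ribosome biogenesis the highest at 0.40.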

How the data were processed

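RNA-seq values of 6 libraries were used, 3 per group. The deposited table holds log2 values, log2(TPM + 1) with a pseudocount of 1. STAR, RSEM and limma, without versions, and the builds GRCm38 and mm10 are named in the submitters' processing notes, and reads were 75 bp pairs per the labels' protocols. TPM keeps no counts, so no count test or counting interval was possible. Raised back to TPM, the members' values were summed per library. All 55450 identifiers matched GENCODE mouse release M21, which gave coordinates. Genes at a log2 value of at least 1 in at least 3 libraries (12155) were fitted with limma 3.58.1 (lmFit, eBayes with a mean-variance trend, R 4.3.3) without covariates. The test was two-sided, p-values were adjusted over all of them by Benjamini and Hochberg's method, and calls were made under 0.05. The script was tested on simulated data. Copies were found with blastn 2.17.0 (90% identity, 75% of the copy, 150 bases), and promoters came from RefSeq.

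Members and lists were chosen with earlier results of these data known. Members were named by a rule: up to 5 per subunit and direction without overlap, the highest and lowest levels, paralogs with their parents, the largest departures from the core median, and 2 genes per list. Some results are not reported here. Column names give a group but no replicate number.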

Additional observations from a re-analysis of the deposited data

How the results depend on the processing

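Over the alternatives run, the medians of both subunits stayed below 0 and the count of called members stayed 0 in limma, with these exceptions. With the date mark as a block, 1 large and 2 small subunit members passed, and without both dated libraries 1 small subunit member passed. With core ribosomal medians set equal, the medians were 0.063 (large) and 0.099 (small). With library medians set equal, which moved the median of all genes from 0.09 to -0.041, the large subunit median was -0.35. Leaving out 1 library gave medians of -0.29 to -0.11 (large) and -0.25 to -0.068 (small). The difference in the ribosomal share of TPM was then -1.74 to -0.42 points. Lower without overlap were 12 to 31 large and 12 to 21 small subunit genes, counts that can only stay or rise with a library left out. Of the values of named genes under alternatives, 798 kept direction and side of the threshold, 7 passed newly and 38 changed sign, all in genes with small or widely spread differences. With library medians set equal, the values were -0.13 (Rpl7l1), -0.053 (Rps19), -0.085 (Rps27), -0.033 (Rps27l) and -0.11 (Rps3a3). With quantile normalization they were 0.040 (Rpl37a), -0.13 (Rpl7l1), 0.12 (Rps14) and -0.0077 (Rps3a3). Without the dated libraries they were 0.024 (Rpl37a), -0.13 (Rpl7l1), 0.066 (Rps14) and 0.30 (Rps4l). With core ribosomal medians set equal they were 0.18 (Rpl22l1), 0.13 (Rpl36al), 0.25 (Rpl37a), 0.062 (Rpl41), 0.0011 (Rpl7), 0.26 (Rps14) and 0.074 (Rps4l). Leaving out 1 library at a time gave sign changes within these ranges: Rpl22l1 -0.20 to 0.075, Rpl37a -0.045 to 0.0072, Rpl39l -0.54 to 1.49, Rpl7l1 -0.14 to 0.13, Rps14 -0.072 to 0.069, Rps19 -0.0030 to 0.24, Rps19bp1 -0.13 to 0.43, Rps27 -0.0087 to 0.16, Rps27l -0.16 to 0.31, Rps3a3 -0.18 to 0.23 and Rps4l -0.41 to 0.068. Setting library medians or core medians equal moves every gene's difference by the same amount. Small differences on the other side of 0 had to change sign there. The cause of the other changes was not tested. Over all genes limma called 25, against 0 to 121 with 1 library left out, 240 with the date block, 215 without the dated libraries, 47 with a value of at least 1 in all 6 libraries, 38 with quantile normalization, 4 without the trend and 1 without a filter. Adding copies, equal core medians, the overlap counts' alternatives and the test of the date mark were chosen after seeing the data. No paired analysis was possible because the column names carry no replicate numbers. Depth is unknown, and 3 libraries a group limit the precision.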
